A study of Mus musculus with 3 samples.

Results

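The barcodes described here were those in which more than 10% of the unique molecular identifiers (UMIs, the tags that count single captured RNA molecules) came from genes encoded by the mitochondrial genome. All 3 libraries were pooled, barcodes with at least 500 UMIs and 200 genes were kept, and 8448 of 27557 barcodes, or 30.7%, lay above the limit. The barcodes were chosen by their measured mitochondrial share, so that share is given as a description and without a test. Each library came from C57/BL6J mice that drank 1.5% dextran sodium sulfate (DSS), which injures the colonic epithelium, for 7 days and then water for 3 days. Mice received 250 µg of antibody 3 times a week by intraperitoneal injection. The antibody was rat IgG as control (library RatIgG), clone DATK32 (library DATK32) or clone MECA-367 (library MECA367), with 1 library for each and an unstated number of animals. The sample titles also pair each of these clones with a drug name, and the pairing does not match what the clones are known to bind. Libraries are therefore named by clone only, and whether the clone names or the drug names are right could not be settled. By the labels, viable CD45+ mononuclear cells of the lamina propria of the large intestine were sorted before droplet capture and 3' sequencing. Because each treatment has 1 library, no test between treatments was possible, and the intervals given for shares (exact Clopper-Pearson, 95%) cover counting error only.

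The mitochondrial genome codes for 13 proteins of the respiratory chain, and all other mitochondrial proteins, ribosomal proteins included, are made from nuclear genes. The share of mitochondrial transcripts in a droplet depends on how many mitochondria a cell holds, on how active they are and on how much cytoplasmic RNA is kept, and single-cell studies use an upper limit on it as a filter. In the colon, absorptive colonocytes move from the crypt to the surface as they mature and burn fatty acids, above all butyrate, in their mitochondria, while goblet cells make the mucus that covers them.

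The libraries held 10809, 8430 and 8318 passing barcodes (RatIgG, DATK32 and MECA367), with median depths of 1932 to 2101 UMIs per deposited barcode and totals of 27846540 to 30359331 UMIs. Between 18 and 20 barcode sequences were shared by each pair of libraries. Although the label names a CD45 sort, only 34.3% of the barcodes at or below the limit and 9.62% of those above it fell in immune clusters (plasma cells apart). The labelled cell type was thus not that of most barcodes above the limit.

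Those above the limit made up 3442 barcodes in RatIgG (31.8%, 31.0 to 32.7), 2578 in DATK32 (30.6%, 29.6 to 31.6) and 2428 in MECA367 (29.2%, 28.2 to 30.2), so the overall share was nearly even. How far they lay above it was not. The band from 10% to 20% held 21.1%, 18.1% and 12.6% of the barcodes of RatIgG, DATK32 and MECA367, and the band from 20% to 40% held 9.52%, 9.99% and 9.69%. Over 40% lay 135 barcodes in RatIgG (1.25%, 1.05 to 1.48), 207 in DATK32 (2.46%, 2.14 to 2.81) and 574 in MECA367 (6.90%, 6.37 to 7.47). For that top band all 3 intervals were apart, and each library exceeded the one before it by more than 1.5 times; with 1 library per treatment, the antibody and the preparation of the library cannot be told apart. Among the members themselves the top band took 3.92%, 8.03% and 23.6%, and their median mitochondrial share was 16.3%, 17.7% and 22.9%. The barcodes at or below the limit ran the other way, with medians of 4.72%, 4.42% and 4.02%.

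**Figure D1:**
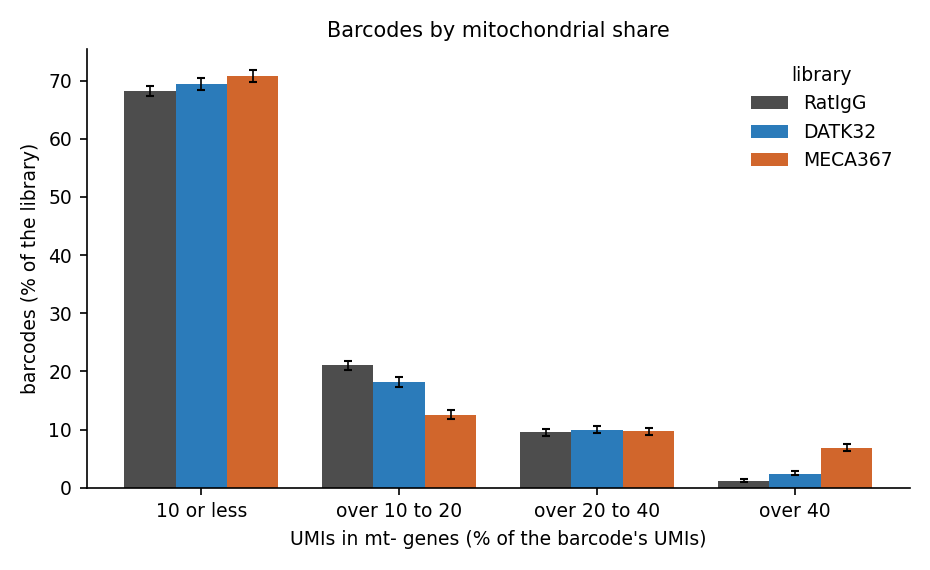
Share of all passing barcodes of each library (y axis, percent) at or below 10% and in the bands 10 to 20%, 20 to 40% and over 40% mitochondrial UMIs (x axis); bars are shares and whiskers exact 95% intervals for counting error, with 1 library per treatment. The band from 10 to 20% falls from RatIgG (21.1%) to MECA367 (12.6%), while the band over 40% goes from 1.25% to 6.90%.

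The limit cut through a continuous distribution. The members just inside it had 10.0014% and the barcodes just outside it 10%, with 862 barcodes between 10% and 11% and 968 between 9% and 10%. The highest shares were 79.9% in RatIgG, 74.9% in DATK32 and 87.3% in MECA367.

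Most members were columnar epithelium. Of the genes named in the rule, Epcam (an adhesion molecule of epithelia) and Krt8 (a keratin of simple epithelia) marked them: 82.8% of members had an Epcam UMI against 34.7% of the other barcodes, at median depths of 2832 and 1619 UMIs. As background, 7.42% of fibroblast barcodes at or below the limit, with a median of 1344 UMIs, also had an Epcam UMI. By single genes, 69.1% of members (5841) had UMIs of Epcam or Krt8 and of no other marker in the rule, and 24.8% (2095) had markers of several lineages. UMIs of Ptprc (the CD45 gene, on immune cells) alone were found in 1.11%, of Col1a1 (a collagen of fibroblasts) alone in 0.911%, and 3.56% had none of the markers. At or below the limit the same classes held 27.4%, 22.5%, 17.5%, 10.7% and 17.0%.

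Clusters of all barcodes, built without the mitochondrial genes and named from marker lists, gave the lineages used from here on. Columnar epithelium held 5014 of the members (59.4%) against 21.4% of the other barcodes. In this lineage 53.2% of barcodes lay above the limit in RatIgG (51.6 to 54.8), 51.3% in DATK32 (49.4 to 53.1) and 62.0% in MECA367 (60.1 to 63.9), or 55.1% of 9106 in all. Every other named lineage lay lower in each library. Glia and pacemaker cells of the gut wall followed with 22.3%, 16.6% and 18.5%, then muscle and pericytes with 13%, 13.1% and 12.5%, and immune cells with 14.0%, 9.17% and 9.80%. Fibroblasts had 12.5%, 8.99% and 6.95%. The lowest shares were in plasma cells, which secrete antibody, at 3.71%, 5.49% and 2.13%; endothelium had 9.47%, 6.38% and 8.16%. Squamous epithelium had 7.83% and 6.59% in RatIgG and DATK32 and no barcode in MECA367. Squamous epithelium, which Krt5 marks and which lines the anal canal, held 30 members.

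**Figure D2:**
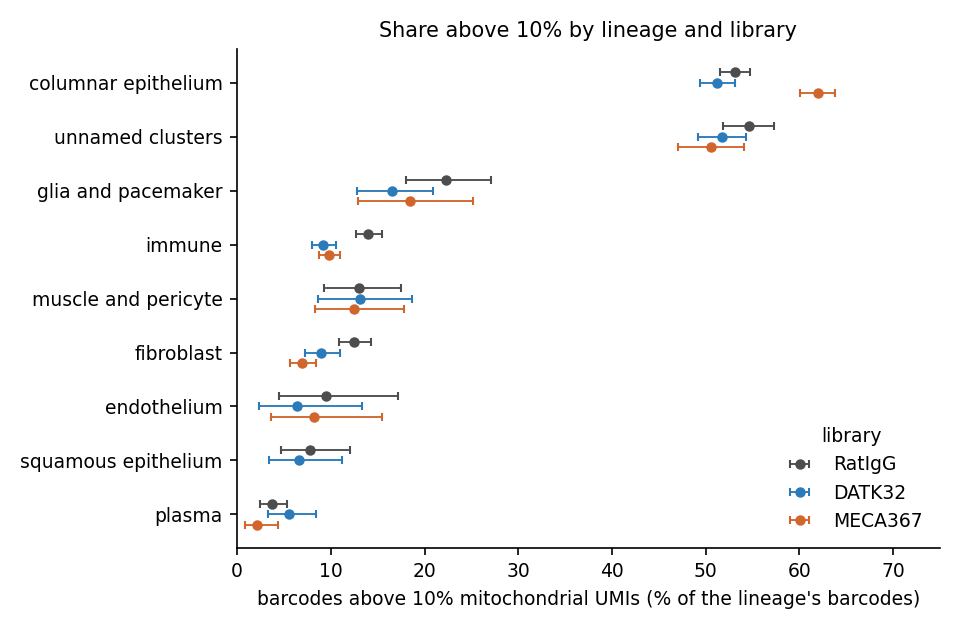
Percent of each lineage's barcodes above 10% mitochondrial UMIs (x axis), 1 point per library with its exact 95% interval for counting error. Columnar epithelium lies at 51.3% to 62.0% in all 3 libraries, and plasma cells lie lowest at 2.13% to 5.49%.

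A further 1893 members (22.4%) sat in clusters that the marker rule left unnamed, nearly all of them (1872 of the 3350 barcodes in it) in 1 cluster led by Incenp, Hist1h1b, Gpx2 and Top2a. Incenp and Top2a act in cell division and Gpx2 is a peroxidase of gut epithelium. The cluster's epithelial score of 0.486 was just under the threshold of 0.5, and 58.7%, 53.4% and 56.1% of its barcodes lay above the limit in RatIgG, DATK32 and MECA367.

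Within columnar epithelium the share above the limit differed by cluster. The cluster named by surface colonocyte markers had 75.3%, 73.1% and 77.1% in RatIgG, DATK32 and MECA367. The goblet cluster led by Muc2, Spink4 and Retnlb had 36.9%, 35.3% and 50.4%, the lowest shares among the 4 clusters of over 1000 barcodes. Between them lay the cluster led by Edn1 and Edn2 (53.1%, 58.3% and 59.7%) and the cluster led by the antimicrobial lectins Reg3g and Reg3b (57.6%, 52.7% and 65.2%). The last of these held 1551 barcodes in MECA367, against 667 in RatIgG and 750 in DATK32. A cluster of 159 barcodes with both goblet and surface genes had 63.5% over all libraries, and 6 of 12 in MECA367. In each of the 4 larger clusters the top band was fullest in MECA367: over 40% lay 3.71%, 8.46% and 22.4% of surface colonocyte barcodes, 3.60%, 6.27% and 21.4% of the Reg3g cluster, 0.960%, 0.295% and 10.6% of the Edn1 cluster, and 0.166%, 0.334% and 3.8% of goblet barcodes. In counts, 416 of the 563 columnar epithelial barcodes over 40% came from MECA367, 85 from DATK32 and 62 from RatIgG.

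The immune clusters differed among themselves too. Neutrophil barcodes lay above the limit in 29.8%, 19.4% and 17.0% of cases (RatIgG, DATK32 and MECA367). Of the T cell clusters, the one led by Tnfrsf4, Icos and Il2ra had 22.4%, 12.3% and 8.17%, and the one led by Gzma, Xcl1 and Nkg7 had 4.45%, 3.14% and 4.57%. Monocytes and macrophages had 11.4%, 9.35% and 12.1%, and B cells 10.5%, 5.69% and 4.94%.

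A higher mitochondrial share in epithelium went with more mitochondrial UMIs and fewer others. From the barcodes at or below 10% through the 3 bands, the median number of mitochondrial UMIs per epithelial barcode was 278, 540, 781 and 1123. The median number of all other UMIs was 3790.5, 3357, 2088 and 969, and the median number of genes was 1717, 1638, 1182 and 619. After each barcode was thinned to 300 non-mitochondrial UMIs, it showed a median of 241, 245, 242 and 225 genes, so the loss of genes was small at equal depth. Immune and fibroblast members were instead the deeper barcodes of their lineages: immune members had a median of 2615 UMIs against 1187 at or below the limit, and fibroblast members 2232 against 1344.

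The make-up of the mitochondrial UMIs changed little. In epithelium mt-Atp6, a subunit of the ATP synthase, took 20.8% of mitochondrial UMIs at or below the limit and 22.4% over 40%. For mt-Co1, the catalytic subunit of cytochrome oxidase, the shares were 21.3% and 18.3%, for mt-Co3 16.9% and 18.1%, and for mt-Cytb of complex III 7.52% and 8.50%. The larger relative changes were in transcripts of low share: mt-Atp8 had 1.14% and 0.720%, mt-Nd3 2.11% and 1.36%, and mt-Nd4l 1.45% and 1.02%. Of all UMIs, mt-Atp6 alone went from 1.43% to 11.5%. These shares pool the libraries, and MECA367 gave 416 of the 563 epithelial barcodes over 40% but 971 of 4092 at or below the limit. In the pooled shares, differences between libraries and between bands cannot be told apart.

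Genes other than the mitochondrial ones were compared across the limit within a lineage. UMIs were summed per library and side, the mitochondrial genes were left out of counts and library sizes, and edgeR's quasi-likelihood test was run with the library as a block, so each comparison has 3 pairs. Both sides of a pair share animals, tube and sequencing, and adjusted p-values (Benjamini-Hochberg, called under 0.05) measure the spread between these 3 libraries only. In columnar epithelium 2246 of 12272 genes (18.3%) were higher above the limit and 2315 (18.9%) lower, and the median log2 change of all genes was 0.02. Levels below are CPM, counts scaled to the total of non-mitochondrial UMIs, and log2 changes are from the fit after TMM scaling, so they can differ from the ratio of the CPM values.

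The epithelial identity genes moved little. Epcam had 1801 CPM above and 1770 at or below the limit in RatIgG, 1884 and 1821 in DATK32, and 1924 and 2095 in MECA367. The sides overlapped, and the change of -0.12 (SE 0.05, adjusted p = 0.073) did not pass. Krt8 was higher above the limit in each library, at 4415 against 3404, 4224 against 3017 and 3987 against 2871 CPM (log2 change 0.34, SE 0.04, adjusted p = 1.1e-06). Of the 10 epithelial markers 4 were higher and 1, the tight junction gene Cldn3 (-0.36), lower, with a median of 0.07. Ptprc, the gene of the sorted surface protein, had 8.24, 4.81 and 8.63 CPM above the limit and 9.71, 4.51 and 5.88 below it in these barcodes, and none of the 10 immune markers passed in either direction (median -0.01). Among other markers foreign to epithelium, 3 of 5 tested neutrophil genes rose (median 0.49). For fibroblast markers 2 of 9 rose (median 0.42), and plasma cell markers had 2 up and 3 down of 7 (median 0.46). Of all genes 18.3% were higher and 18.9% lower, so the fibroblast count was near that share. The part of these markers in the results was not tested.

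Surface colonocyte genes were higher above the limit: 9 of 10 rose and 1 fell, with a median log2 change of 1.16. Krt20, a keratin of mature surface cells, had 75.9, 73.8 and 54.1 CPM above the limit and 22.3, 16.3 and 24.8 at or below it (RatIgG, DATK32, MECA367). The 2 sets of values did not overlap, and the log2 change was 1.62 (SE 0.12, adjusted p = 4.5e-10). Car1, a carbonic anhydrase of colonocytes, rose by 1.13 (SE 0.11, adjusted p = 1.9e-08), with 2063, 1932 and 917 CPM against 667, 725 and 603. Muc3, a membrane mucin, rose by 0.95, while Guca2a, the precursor of the hormone guanylin, fell by 0.32 on the log2 scale. Its direction differed by library, at 1106 against 979 CPM in RatIgG and 536 against 862 in MECA367.

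The largest rises were sought among called genes of at least 32 CPM with the same direction in all 3 libraries. Markers of other lineages and immunoglobulin, T cell receptor and clone-named genes were left out. The largest were Krt20, Dpep1 (a brush border dipeptidase, 1.53), Myo15b (1.48), Cyp2c55 (a cytochrome P450 of the colon, 1.36), Emp1 (1.14) and Car1. Cyp2c55 had 742, 582 and 206 CPM above the limit and 246, 169 and 111 at or below it, and Emp1 had 305, 295 and 247 against 121, 119 and 119. That every library was higher above the limit in both followed from this choice.

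Goblet cell genes were lower above the limit: all 10 fell, with a median of -1.07. Muc2, the gel-forming mucin of the colon, had 3240, 4021 and 4268 CPM above the limit and 8832, 11011 and 9416 at or below it, with no overlap (log2 change -1.45, SE 0.05, adjusted p = 5.7e-16). The largest fall by this rule was that of Agr2, a chaperone for mucin folding, with 1495, 1509 and 1807 against 4654, 5290 and 6186 CPM (log2 change -1.84, SE 0.05, adjusted p = 2.8e-18). Spink4, a goblet cell product, fell by 1.60, Ccl6 by 1.61, Sval1 by 1.75, Mt3 by 1.72 and Ceacam10 by 1.56 on the log2 scale. Secretory endocrine genes also fell, 6 of 9 against 1 that rose (median -0.78), with Chga, a granule protein, at -1.34.

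Since the clusters had unequal shares above the limit, the mix of cells was matched. When the barcodes at or below the limit were drawn to hold the same clusters as those above it in each library, 11.2% of all genes were higher and 14.2% lower. Then 5 of the 10 surface colonocyte genes rose and none fell (median 0.29), and 6 of the 10 goblet genes fell and none rose (median -0.50). Fitted apart, the 4 larger clusters differed from each other. In the goblet cluster (13.4% of all genes higher, 15.4% lower) 6 of 10 goblet genes fell and 1 rose (median -0.34), and 5 of 7 surface genes rose and 1 fell (median 1.09). In the surface colonocyte cluster (3.84% higher, 4.26% lower) 8 of 10 surface genes rose (median 0.70) and 1 of 5 goblet genes rose. In the Edn1 cluster (4.32% higher, 8.80% lower) 1 of 7 surface genes rose (median -0.01) and 1 of 7 goblet genes fell (median -0.12). In the Reg3g cluster (10.6% higher, 13.4% lower) goblet genes went the other way, with 3 up and 1 down of 7 (median 0.45), and 2 of 7 surface genes rose (median 0.19).

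Nuclear genes for the respiratory chain were lower above the limit, while their partners from the mitochondrial genome were, by the rule, higher. Of 38 tested genes of complex I 30 fell and none rose (median -0.39). In complexes II and III 10 of 14 fell (median -0.26), in complex IV 9 of 13 (median -0.44), and in complex V, the ATP synthase, 14 of 17 (median -0.34), with none of these rising. Cox8a, a small subunit of complex IV, had 1376, 1078 and 952 CPM above the limit and 1899, 1729 and 1616 at or below it. The values did not overlap, and the log2 change was -0.74 (SE 0.06, adjusted p = 5.8e-10). Ndufa4 fell by 0.72, Uqcrh of complex III by 0.58 and Atp5l by 0.50 on the log2 scale.

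Other mitochondrial genes in the nucleus did not move as 1 group. The mitochondrial ribosome was lower, with 46 of 78 genes down and 1 up (median -0.32), as in Mrpl52 (-0.60). Genes that copy, transcribe and process mitochondrial DNA had 4 up and 5 down of 20 (median 0.03). Of all genes 18.3% were higher and 18.9% lower, so these counts were near those shares. Among them Tfam, which packages mitochondrial DNA, fell by 0.29 and Ppargc1a, a regulator of mitochondrial genes, by 0.43 on the log2 scale. Ppargc1b rose by 0.28. Import and chaperone genes had 5 up and 5 down of 16 (median 0.07), though the rises numbered 1 without RatIgG or without DATK32. Fatty acid oxidation and ketone genes had 7 up and 1 down of 17 (median 0.14), or 3 up without RatIgG and 3 without DATK32. At 10 to 20% they had 7 up and 0 down (median 0.17). At 20 to 40% they had 2 up and 5 down (median -0.14), and over 40% none rose and 8 fell (median -0.53).

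Cytoplasmic translation genes fell together. Of 77 ribosomal protein genes 68 fell and none rose (median -0.35), against 18.9% of all genes that fell. Rps29 had 5198, 5737 and 2568 CPM above the limit and 6655, 7662 and 3168 at or below it (log2 change -0.46, SE 0.04, adjusted p = 8.1e-09). The sums overlapped across libraries but each library was lower above the limit. Rpl13 fell by 0.18 and the elongation factor Eef1b2 by 0.45 on the log2 scale, while Eef2, another elongation factor, rose by 0.35. Reads of ribosomal protein genes can be shared with their pseudogenes, and how the counting split them was not tested.

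RNAs that stay in the nucleus moved the other way. Of 9 tested 5 rose and none fell (median 0.41). Malat1, an abundant nuclear RNA, had 18883, 19440 and 16964 CPM above the limit and 13870, 13034 and 9534 at or below it, without overlap (log2 change 0.52, SE 0.05, adjusted p = 7.3e-09). Xist, the RNA that coats the inactive X chromosome, rose by 0.67 and Neat1, a scaffold of nuclear paraspeckles, by 0.42.

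With matched clusters the nuclear and translation genes kept their direction: 70 of 77 ribosomal protein genes fell (median -0.42) and 31 of 38 complex I genes (median -0.44). In the goblet, surface colonocyte, Edn1 and Reg3g clusters, fitted apart, 67, 63, 65 and 70 of the 77 ribosomal protein genes fell and none rose, with medians of -0.39 to -0.42. Complex I genes fell in 28, 17, 27 and 32 of 38 cases. Of the nuclear-retained RNAs, all 8 tested rose in the goblet cluster (median 0.68), 4 of 6 in the surface colonocyte cluster (median 0.45), 3 of 6 in the Edn1 cluster, where 1 fell (median 0.35), and 4 of 6 in the Reg3g cluster (median 0.46). At a limit of 5% in place of 10% (9.47% of all genes higher, 10.4% lower), however, ribosomal protein genes had 14 falls and 2 rises (median -0.01) and complex I genes 10 falls and 1 rise (median -0.11).

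Stress and inflammation genes were mixed. Saa1, an acute phase protein that injured epithelium makes, had 39.6, 41.8 and 42.0 CPM above the limit and 2.17, 6.98 and 1.42 at or below it, the largest rise among the antimicrobial genes (log2 change 3.38, SE 0.21, adjusted p = 2.3e-11). At or below the limit the Saa1 levels rest on 15, 48 and 7 UMIs. Of the 10 antimicrobial genes 6 rose and 1 fell (median 0.59). Duoxa2, which matures an epithelial hydrogen peroxide source, rose by 0.72, and Retnlb, a goblet cell product that acts on bacteria, fell by 1.56 on the log2 scale. At a 5% limit 2 of the 10 rose. Genes of the integrated stress response fell in 6 of 15 cases and none rose (median -0.25), among them Herpud1 and Ddit3, each at -0.68. Immediate early genes had 4 up and 7 down of 19, or 2 up and 3 down without DATK32, and heat shock genes 2 up and 1 down of 12. Of all genes 18.3% were higher and 18.9% lower, so the rises in both lists were near the share of all genes. Cell death genes had 7 up and 2 down of 21 (median 0.14), or 2 up without DATK32: the p53 target Pmaip1 rose by 0.48 and Bax, which opens the outer mitochondrial membrane, fell by 0.47 on the log2 scale.

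Across the bands the falls of ribosomal protein and respiratory chain genes grew. Fatty acid and ketone genes did not keep their direction, and the number of called genes was highest at 20 to 40%. Against the epithelial barcodes at or below 10%, 952 of 11328 genes (8.40%) were higher and 1675 (14.8%) lower at 10 to 20%. At 20 to 40% the counts were 2324 (20.5%) and 2700 (23.8%), and over 40% they were 1720 (15.2%) and 2249 (19.9%). The median change of all genes was -0.01, -0.00 and -0.05. For 10 to 20%, the 2627 calls fell to 1478 without RatIgG and 1456 without DATK32. Over 40%, where MECA367 gave most barcodes, the 3969 calls fell to 1668 without it.

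Ribosomal protein genes took 20.5%, 21.4% and 19.9% of non-mitochondrial UMIs at or below the limit in RatIgG, DATK32 and MECA367. They took 18.6%, 19.6% and 18.7% at 10 to 20%, 14.2%, 14.4% and 15.4% at 20 to 40%, and 8.31%, 6.68% and 9.67% over 40%. The fall was stepwise in every library, and the 4 bands did not overlap. The number of the 77 genes that fell was 27, 67 and 76 in the 3 bands, with medians of -0.24, -0.76 and -1.61 and no gene higher.

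The chain's nuclear genes followed. Of 38 complex I genes 24, 32 and 35 fell (medians -0.29, -0.75 and -1.62), of 13 complex IV genes 8, 10 and 12 (medians -0.33, -0.90 and -1.60), and of 17 ATP synthase genes 10, 15 and 16 (medians -0.25, -0.71 and -1.45). Complex IV genes went from 1.14%, 1.12% and 1.08% of non-mitochondrial UMIs at or below the limit to 0.568%, 0.490% and 0.381% over 40%. Cox8a had 1899, 1729 and 1616 CPM at or below the limit, 874, 601 and 645 at 20 to 40%, and 533, 414 and 333 over 40% (log2 change over 40% -2.39, SE 0.14, adjusted p = 4.9e-21). The mitochondrial ribosome fell in 39, 56 and 52 of 78 genes (medians -0.25, -0.66 and -0.90).

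Nuclear-retained RNAs made up 1.77%, 1.74% and 2.09% of non-mitochondrial UMIs at or below the limit, 2.21%, 2.18% and 2.54% at 10 to 20%, 3.52%, 3.70% and 4.18% at 20 to 40%, and 5.46%, 6.63% and 6.22% over 40%. Each library rose at each step. Malat1 had 38154, 43717 and 28924 CPM over 40%, against 13870, 13034 and 9534 at or below the limit (log2 change 1.32, SE 0.14, adjusted p = 3.7e-12). Of the 9 RNAs, 2, 5 and 5 rose in the 3 bands.

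Cell state genes separated further as well. All 10 goblet genes fell at 20 to 40% and over 40% (medians -1.85 and -3.82), and their share went from 1.94%, 2.27% and 2.33% to 0.122%, 0.139% and 0.244% over 40%. Agr2 had 150, 257 and 514 CPM over 40%, against 4654, 5290 and 6186. Surface colonocyte genes rose in 7, 9 and 8 of 10 cases (medians 0.79, 1.77 and 1.77), with 1 fall, at 10 to 20%. Over 40% they took 1.09% and 1.04% of UMIs in RatIgG and DATK32 but 0.371% in MECA367, from 0.298%, 0.290% and 0.276% at or below the limit. Krt20 showed the same spread, with 350, 336 and 106 CPM over 40% (log2 change 3.00, SE 0.27). Saa1 reached 450, 246 and 165 CPM there (log2 change 5.95). Such levels over 40% rest on few UMIs: 27, 22 and 87 for Saa1, 21, 30 and 56 for Krt20, and 9, 23 and 272 for Agr2.

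Epithelial identity genes changed less across the bands. Epcam had 1770, 1821 and 2095 CPM at or below the limit, 1917, 1938 and 1951 at 20 to 40%, and 1733, 1880 and 1566 over 40%. After TMM scaling its change passed only in the last of these (-0.44, SE 0.12, adjusted p = 0.0033). Krt8 had 3404, 3017 and 2871 CPM at or below the limit, 4707, 4633 and 4543 at 20 to 40%, and 3466, 3873 and 4186 over 40%. Its change over 40% was 0.07 (adjusted p = 0.71). Of the 10 epithelial markers 4 rose and 1 fell at 20 to 40%, and 1 rose and 3 fell over 40% (medians 0.16 and -0.04). Mki67, a marker of dividing cells, rose to 217, 381 and 503 CPM over 40% from 114, 141 and 162 (1.29, SE 0.13, adjusted p = 2.4e-12), but the 10 cycling genes it belongs to had 3 up and 3 down in that band (median -0.09) and 3 up and 3 down at 20 to 40% (median -0.06). Plasma cell markers were split: 1 rose and 3 fell of 8 at 10 to 20%, 2 rose and 3 fell at 20 to 40%, and 3 rose and 3 fell over 40% (medians -0.22, -0.06 and 0.53). Among those that rose, Igha, the heavy chain of IgA, was higher by 0.30, 1.08 and 1.74 in the 3 bands, and Jchain by 1.75 over 40% (adjusted p = 9.7e-10). Of 7 fibroblast markers 0, 4 and 3 rose in the 3 bands (medians 0.46, 0.78 and 1.38), and of 5 neutrophil genes 0, 3 and 3 (medians -0.03, 0.62 and 1.62). The 10 immune markers together made 0.00913%, 0.00523% and 0.00670% of UMIs at or below the limit and 0.0367%, 0.00448% and 0.0129% over 40%. The part of RNA from other cells in these changes was not tested.

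**Figure D3:**
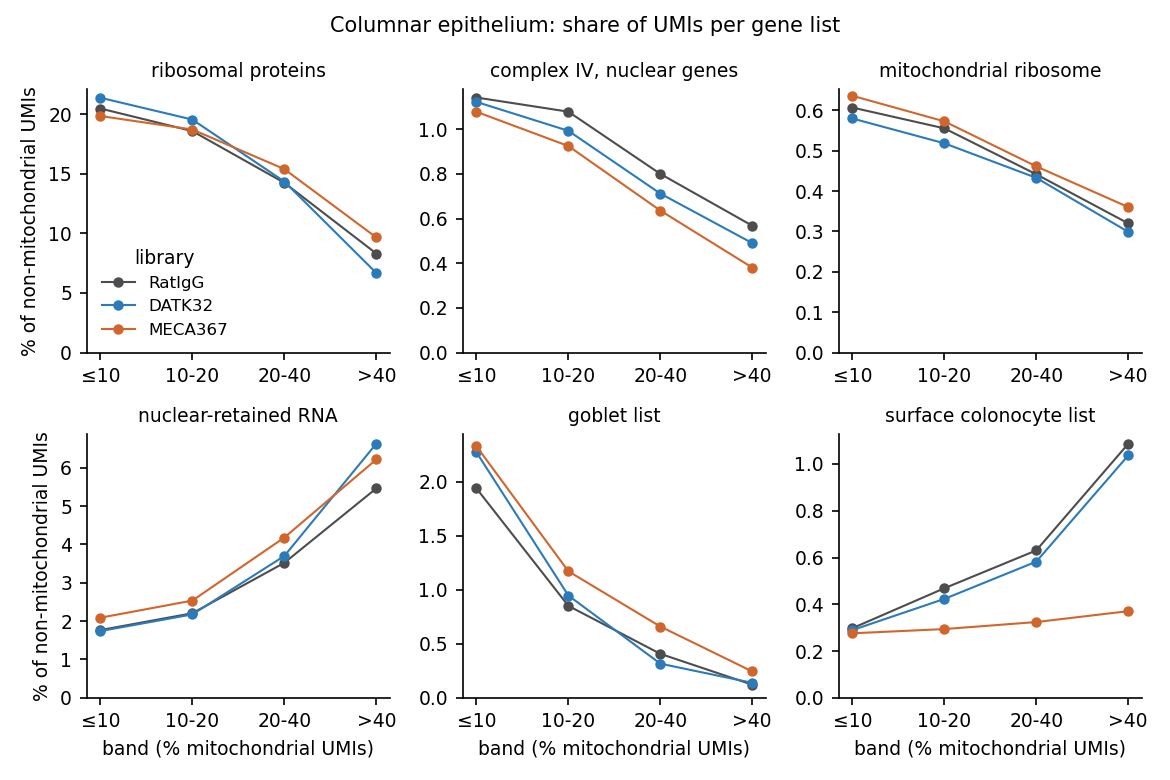
Share of non-mitochondrial UMIs taken by 6 gene lists (y axis, percent) in columnar epithelial barcodes at or below 10% and in the 3 bands (x axis), 1 line per library. Ribosomal proteins step down from 19.9% to 21.4% at or below the limit to 6.68% to 9.67% over 40% in every library, and nuclear-retained RNAs step up.

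In members of the other lineages, epithelial transcripts came with the mitochondrial ones. Among immune members 72.6% had UMIs of at least 3 of the 10 epithelial markers (78.8%, 75.4% and 62.8% in RatIgG, DATK32 and MECA367), against 9.59% of immune barcodes at or below the limit (10.2%, 9.50% and 9.18%). For fibroblasts the shares were 65.4% (64.9%, 68.5% and 63.4%) and 7.39% (9.43%, 7.88% and 4.90%). Plasma cells had 75.9% against 17.7%, endothelium 69.6% against 5.68%, muscle 41.4% against 8.83%, and glia and pacemaker cells 28.7% against 5.81%. In every one of these lineages the share was higher above the limit.

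The difference was also present at equal depth. After thinning to 300 UMIs, 68.5% of immune members had at least 1 epithelial marker UMI against 15.5% of the other immune barcodes, and 64.1% of fibroblast members against 11.9%. In summed UMIs the epithelial list had 9436 CPM in immune members (11724, 9397 and 7159) and 2207 CPM below (2807, 2640 and 1688), against 16730 CPM in epithelial members. The immune list was lower in those same members, at 6352 CPM against 10135. Fibroblast members had 16784 CPM of their own list against 25712.

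Seen from the other side, few immune barcodes without any epithelial marker UMI lay above the limit: 105 of 4426, or 2.37% (2.44%, 1.71% and 2.80% in RatIgG, DATK32 and MECA367). With 1 or 2 markers the share was 6.88%, and with 3 or more it was 48.4%, or 590 of 1218 (55.8%, 44.5% and 42.6%). Their median depths were 1062, 1290 and 3132 UMIs. Fibroblasts gave 1.96%, 10.0% and 48.6%, endothelium 1.49%, 7.27% and 51.6%, and plasma cells 1.08%, 1.19% and 14.4%. Muscle (8.06%, 10.2% and 40.9%) and glia with pacemaker cells (12.4%, 25.8% and 54.0%) kept a higher share without any epithelial marker UMI. After thinning to 300 UMIs the immune shares were 4.42%, 29.2% and 56.4%. No doublet caller was run, and whether droplets that held more than 1 cell, or free epithelial RNA, gave these barcodes was not tested.

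**Figure D4:**
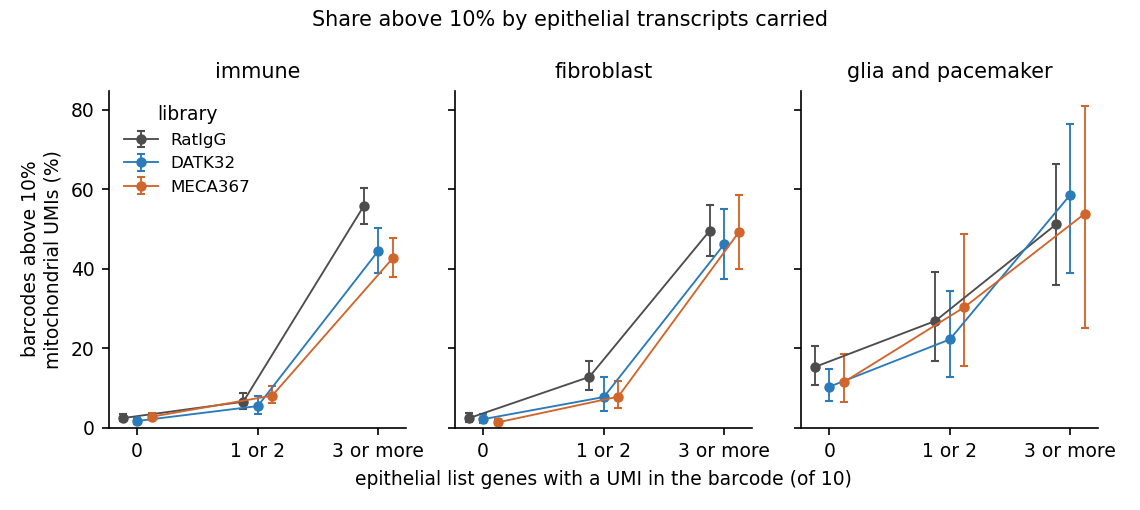
Percent of immune, fibroblast, and glia and pacemaker barcodes above 10% mitochondrial UMIs (y axis) by how many of the 10 epithelial markers had a UMI (x axis), 1 point per library with exact 95% intervals. With no marker, immune shares were 1.71% to 2.80% and fibroblast shares 1.37% to 2.41%, and with 3 or more they were 42.6% to 55.8% and 46.2% to 49.6%.

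Genes typical of epithelium were also higher in the summed UMIs of immune members, and immune genes lower. Of 10970 genes 2120 (19.3%) were higher and 2181 (19.9%) lower. Levels in epithelium and in immune barcodes, both at or below the limit, were also compared. Of the genes that were higher, 78.6% (1667) had at least 2 times the level in epithelium, against 23.6% of all genes tested. Of the genes that were lower, 58% (1264) had at least 2 times the level in immune barcodes, against 17.3%. Those immune sums are also the baseline of the tested change, so these shares are not independent of the calls. All 10 epithelial markers rose (median 1.77) and all 10 immune markers fell (median -0.98). Epcam had 1233, 1110 and 840 CPM above the limit and 330, 306 and 241 at or below it (log2 change 1.67, SE 0.12, adjusted p = 4.9e-17). Ptprc had 403, 472 and 688 CPM against 941, 1010 and 952 (-1.10, SE 0.13, adjusted p = 2.7e-10). Neither gene's sides overlapped.

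The largest rises among immune barcodes were Cyp2c55 (2.90), the ephrin receptor Epha2 (2.71), Cdhr5 (a brush border cadherin, 2.61), Misp (2.50), Gprc5a (2.48) and Lmo7 (2.46). Lmo7 had 335, 351 and 270 CPM above the limit and 67.8, 56.5 and 33.8 at or below it. The largest falls were Il22, a cytokine of innate and T lymphocytes that acts on epithelium (-4.14), Calca (-2.44), Ikzf3 (-2.19), the complement genes C1qb (-2.18) and C1qc (-2.17), and Spn (-2.17). Il22 had 9.15, 15.1 and 3.45 CPM above the limit and 110, 201 and 110 at or below it, without overlap. Gcg, a hormone of endocrine cells, had no UMI above the limit in any library and 7.33, 30.4 and 9.61 CPM at or below it, and Krt5 had none above it and 33.0, 21.3 and 0 CPM below.

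The immune list results come from sides not matched by cluster, and the mix of cells differed between them. Neutrophils were 109 of 349 immune members and 366 of all 2495 immune barcodes in RatIgG. In DATK32 they were 60 of 187 and 309 of 2039. A fit with matched clusters called 3089 genes, and its list results are not given here. Lists for immune subsets fell in step: all 10 T cell genes (median -1.58), all 10 B cell genes (median -1.78, or 6 genes without RatIgG), all 10 monocyte and macrophage genes (median -1.36), and 7 of 8 class II antigen presentation genes (median -1.38). H2-Aa, a class II chain, fell by 1.53 on the log2 scale. Neutrophil genes did not: 1 of 10 fell and none rose (median 0.03). Interferon-stimulated genes fell in 11 of 19 cases (median -0.46). Of the NK and innate lymphoid genes 9 of 10 fell, and the growth factor Areg, which epithelium also expressed here at 830 to 936 CPM, rose by 1.37.

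Ribosomal protein genes also fell in immune members, with the sides not matched by cluster, 63 of 77 with none higher (median -0.54). Respiratory chain genes did not fall together: complex I had 5 up and 7 down of 38 (median -0.06; 9 up and 2 down without MECA367), complexes II and III 8 up and 1 down of 14 (median 0.38; 3 up without RatIgG), and complex V 4 up and 3 down of 17 (1 up without RatIgG). Of all genes 19.3% were higher and 19.9% lower, so the counts for complexes I and V were near those shares. Fatty acid and ketone genes rose in 15 of 17 cases (median 0.76). Immediate early genes rose in 11 of 19 cases and fell in 3 (median 0.40), with Jun at 2764, 2387 and 2175 CPM against 1124, 990 and 801 (1.15, SE 0.11) and Fos at 0.71. Jun had 3247 to 3430 CPM in epithelium at or below the limit.

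Once the immune barcodes with any UMI of the epithelial list were left out, a choice made after seeing the data, the 4301 calls fell to 172, of which 14 were higher (0.190% of genes tested) and 158 lower (2.14%), with a median of -0.36 over all genes. Between 22 and 49 members per library remained in that fit. Ribosomal protein genes fell in 71 of 77 cases (median -1.0), complex I genes had a median of -0.77 with no call, and none of the 10 immune markers passed (median -0.33). Neutrophil genes then rose in 5 of 10 cases (median 0.88). Leaving out only barcodes with at least 3 markers of a second lineage gave 367 calls (1.46% of genes higher and 2.83% lower), with 70 of 77 ribosomal protein genes lower and 7 of 10 neutrophil genes higher.

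In fibroblasts 927 of 9934 genes (9.33%) were higher and 678 (6.83%) lower, and the total of 1605 fell to 639 without RatIgG. All 10 epithelial markers rose (median 2.18) and all 10 fibroblast markers fell (median -0.71). Col1a1 had 822, 739 and 732 CPM above the limit and 1443, 1325 and 1135 at or below it (log2 change -0.82, SE 0.10, adjusted p = 3.3e-07), and Epcam had 831, 793 and 795 against 251, 188 and 103 (2.18, SE 0.16, adjusted p = 1.5e-11). Neither overlapped. Of the genes that were higher, 82.2% had at least 2 times the level in epithelium, against 15.3% of those tested. Fibroblast sums at or below the limit are the baseline of both, so this share is not independent of the calls.

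The largest rises in fibroblasts were Cyp2c55 (3.27), Cldn23 (a claudin, 2.87), Eppk1 (2.83), Nlrp6 (an inflammasome gene of gut epithelium, 2.81), Myh14 (2.74) and Misp (2.54). Among the largest falls, Ifng, the cytokine interferon gamma, had no UMI above the limit in any library and 27.4, 30.8 and 84.6 CPM at or below it. The granzyme Gzma had 0, 2 and 0 UMIs above the limit against 44, 40 and 232 and Gzmb 2, 1 and 0 against 49, 25 and 156. Ccl5, a chemokine, had 37.6, 14.8 and 22.4 CPM against 137, 137 and 260 (-2.77). Of the NK and innate lymphoid list 3 genes were tested in fibroblasts, of which 1 rose and 1 fell (median -0.33). Of the 10 immune markers 7 fell and none rose (median -1.39), against 6.83% of all genes that fell. Of 7 tested T cell genes 5 fell and none rose (median -1.74). The neutrophil list had 2 up and 1 down of 5 (median -0.59). The part of RNA from immune cells in these falls was not tested. Ribosomal protein genes had 6 rises and 11 falls of 77 (median -0.06), or 1 fall without RatIgG and 1 without DATK32, and complex I genes had 2 rises and 1 fall of 38. With all barcodes holding an epithelial list UMI left out, 126 genes (1.79%) were lower and none higher by edgeR's test, against 717 genes in either direction at an unadjusted p under 0.05, and 30 of the ribosomal protein genes fell (median -0.67).

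Whether the change across the limit differed between immune and epithelial barcodes was tested directly, as the interaction of lineage and side. Of 13632 genes 1668 (12.2%) had a more positive log2 change in immune barcodes than in epithelium and 1470 (10.8%) a more negative one. These include genes that passed the filter in 1 of the lineages only. Among the 10251 genes that passed it in both, 1613 had a more positive and 1367 a more negative change in immune barcodes. The 3138 calls fell to 1787 without RatIgG and 1943 without DATK32. All 10 epithelial markers had the more positive change in immune barcodes (median difference 1.62), as for Epcam (1.70). For 7 of the immune markers the change was more negative there. Ptprc, among them, changed by -0.02 in epithelium and -1.10 in immune barcodes (difference -1.17). Ribosomal protein genes had the more negative change in immune barcodes for 35 of 77 genes and the more positive one for none (median difference -0.28). Complex I genes differed for 9 of 38 and complexes II and III for 9 of 14, all with the more positive change in immune barcodes. Of the immediate early genes 12 of 19 had the more positive change in immune barcodes, Jun by 0.90 and Fos by 0.83, and 2 the more negative one. Malat1 (-0.67) and Actb, a cytoskeletal actin (-0.57), had a more negative change in immune barcodes. No fit of the interaction left out immune barcodes with epithelial UMIs. In the immune fit alone, the median of complexes II and III went from 0.38 to -0.37 without mixed barcodes. Without epithelial list UMIs it was -0.55, and that of immediate early genes went from 0.40 to -0.24.

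**Figure D5:**
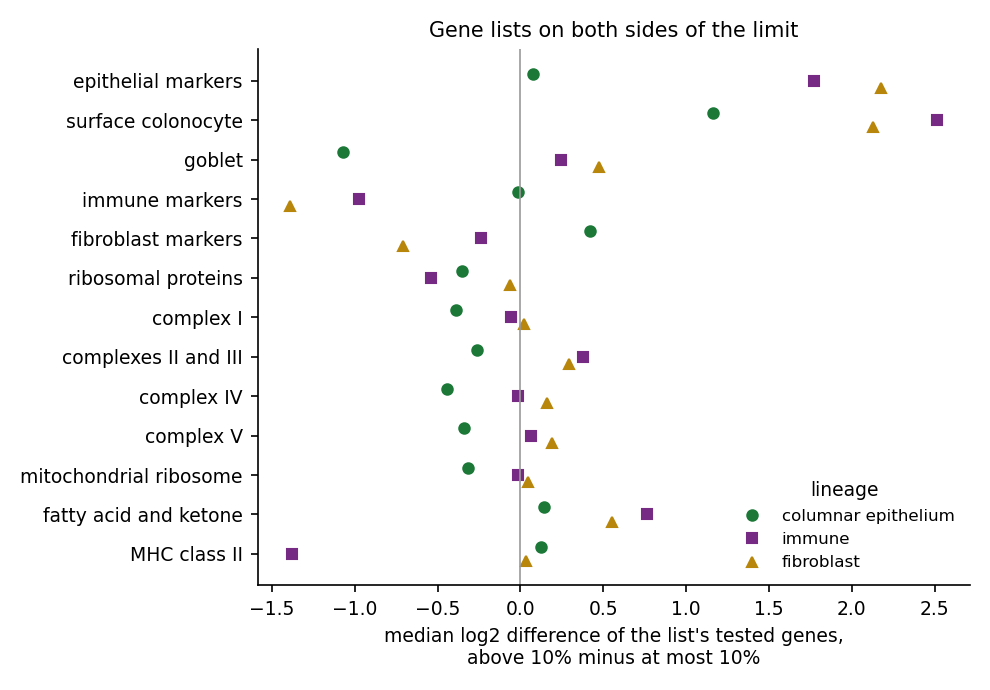
Median log2 change of the tested genes of 13 lists above against at or below 10% (x axis), for columnar epithelium, immune cells and fibroblasts, from sums over 3 libraries per side. Epithelial markers lie near 0 in epithelium (0.07) and at 1.77 and 2.18 in immune cells and fibroblasts, while ribosomal proteins lie at -0.35, -0.54 and -0.06.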

How the data were processed

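The 3 deposited matrices hold UMI counts of 32285 genes (13 of them mitochondrial), made by the authors with Cell Ranger 6.0.2 on mm10 per the submitters' processing notes; the counting options are not given in the sources used here. Barcodes needed at least 500 UMIs and 200 genes, which left out 17, 15 and 69. No doublet caller was run. The members and gene lists were chosen with earlier results of these data known.

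Barcodes were clustered in scanpy 1.11.5 without mitochondrial genes (2000 variable genes, 30 components, 15 neighbours, Leiden with igraph 0.11.9 at resolution 1.0). A cluster took a lineage name at a marker score of at least 0.5, a lead of 0.3 and 3 markers found in 5% of its barcodes. UMIs were summed per library, lineage and side of the limit, and tested with edgeR 4.0.16 in R 4.3.3 (TMM scaling, quasi-likelihood, Benjamini-Hochberg), with the library as a block because both sides of a pair come from the same library; DESeq2 1.42.0 was an alternative. The scripts were tested on simulated data. Exact intervals came from scipy 1.17.1. Genes named were the genes of the rule, list members and the 6 largest called changes in each direction of at least 32 CPM. Within a lineage these 6 needed the same direction in all 3 libraries and lay outside the marker lists of other lineages. Immunoglobulin, T cell receptor and clone-named genes were left out of them. Alternatives were other limits, filters, scaling, thinning, matching and leaving out mixed barcodes or a library. 1 gene of the lists is not reported here.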

Additional observations from a re-analysis of the deposited data

Results flagged for a closer look

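These 6 genes had the largest positive differences between the change across the 10% limit in immune and in columnar epithelial barcodes. They were ranked among called genes of at least 32 CPM, with immunoglobulin, T cell receptor and clone-named genes left out. The test was the interaction term of edgeR's quasi-likelihood test with Benjamini-Hochberg adjustment over 13632 genes. Values are the immune change minus the epithelial change in log2, over 3 libraries.

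The goblet cell products Zg16 (3.70, SE 0.48, adjusted p = 2.3e-06), Clca1 (3.00, SE 1.02, adjusted p = 0.033) and Fcgbp (2.29, SE 0.34, adjusted p = 1.5e-05) had fitted changes of -1.12, -0.78 and -0.33 in epithelium and of 2.70, 2.28 and 1.98 in immune barcodes. The tryptase Tpsg1 differed by 2.35 and Pck1, an enzyme of glucose synthesis, by 2.28, with epithelial changes of -1.37 and -1.0 and immune changes of 1.09 and 1.37. Rasef differed by 2.22, with -0.09 in epithelium and 2.22 in immune barcodes.

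By the same choice, the 6 genes with the most negative fitted differences were Hbb-bs, Il22, Ifi205, C1qb, Gzmb and Gpsm3. They passed the filter on low counts in 1 of the lineages only, so no difference between lineages is given for them.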

How the results depend on the processing

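Counts of called genes moved by over 1.5 times as follows. In epithelium (4561) they were 2397 at a 5% limit, 2941 with matched clusters, 947 after thinning, 2582 without mixed barcodes, 2268 with DESeq2 and 2143 without the library block, with 3231 to 4334 when 1 library was left out. In immune cells (4301) they were 1722 at 20%, 61 with lineage by the rule's markers, 937 thinned, 367 without mixed barcodes, 172 without epithelial list UMIs, 2445 with DESeq2 and 2535 without the block, with 3106 to 4048 when 1 library was left out. In fibroblasts (1605) the same settings gave 284, 68, 179, 65, 126, 567 and 605, with 639 to 1251 when 1 library was left out. The interaction (3138) gave 683 at 20% and 1543 without the block, with 1787 to 2871 when 1 library was left out. The bands from the lowest up gave 165, 888 and 943 after thinning, and 1456 to 2905, 3965 to 4362 and 1668 to 3597 when 1 library was left out. The cause was not tested, except that thinning and leaving out barcodes reduce the counts tested.

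The share above the limit (30.7%) was 59.0% at 5%, 13% at 20% and 36.0% with at least 1000 UMIs and 500 genes. For epithelium it was 90.1%, 22.1% and, by the rule's markers, 52.7%. For immune cells it was 33.3%, 4.05%, 15.1% (1000 UMIs) and 2.73% (rule's markers), and for fibroblasts 38.6%, 2.92%, 11.8% and 3.64%.

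Reversed values were few. In immune cells Jchain went from -0.61 to 0.030 without mixed barcodes and 0.90 without epithelial list UMIs. The median of complexes II and III went from 0.38 to -0.22 at 20%, -0.32 by the rule's markers, -0.37 without mixed barcodes and -0.55 without epithelial list UMIs, and that of immediate early genes to -0.050 by the rule's markers and -0.24 without epithelial list UMIs. In fibroblasts Krt5 went to 1.34 at 5%. In epithelium the list medians depended most on the limit: from 5% to 20% that of ribosomal proteins went from -0.01 to -0.73 and that of complex I from -0.11 to -0.70, with no change of sign. Matching clusters took the surface colonocyte median from 1.16 to 0.29. Of the single genes recomputed in epithelium, 267 values kept their call, 6 lost it and 1 gained it; in immune cells 30 lost it, and in fibroblasts 34.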
